A study of Mus musculus with 21 samples.

Results

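The interaction of Asxl1 loss and Jak2V617F asks, gene by gene, whether the change with Asxl1 loss is the same in cells that carry the mutant kinase as in cells that do not. It was measured in RNA-seq libraries of c-kit+ bone marrow cells from C57BL/6 mice in 4 genotype groups. These were WT (3 libraries), Asxl1-/- (2), Jak2V617F (3) and Asxl1-/-Jak2V617F (3), the last called the double lesion here. The interaction is the log2 change from Jak2V617F to the double lesion minus the log2 change from WT to Asxl1-/-. A positive value means that Asxl1 loss moved a gene further upward in the presence of Jak2V617F than without it. Equally, it means that Jak2V617F moved the gene further upward in the absence of Asxl1. A value of 0 means that the 2 lesions add on the log scale. Genes on chromosomes 1 to 19 were described: 50225 of the 54532 genes in the table, of which 15718 had enough counts to test. Marrow was flushed from femur and tibia, its red cells were lysed, and cells carrying CD117, the stem cell factor receptor encoded by Kit, were enriched with magnetic beads. The promoter or Cre behind each allele, the age and sex of the mice and any pooling were not stated in the labels.

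ASXL1 is a chromatin protein that partners the deubiquitinase BAP1, which removes ubiquitin from histone H2A placed by Polycomb complexes, and its gene is recurrently mutated in myeloid malignancies. JAK2 is the kinase that carries signals from the receptors for erythropoietin, thrombopoietin and several granulocyte growth factors. The V617F form signals without ligand and is the common driver of polycythaemia vera and related myeloproliferative neoplasms. In the marrow, c-kit+ cells are stem cells, progenitors of the red, platelet and granulocyte lines, and mast cells.

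Library totals ranged from 16198011 to 19196283 counts. The 3 Jak2V617F libraries formed a group of their own: on the first principal component (52.2% of the variance) they lay between 97.2 and 104, and the other 8 libraries lay between -46.4 and -17.8. Both Asxl1-/- libraries and Jak2V617F replicate 2 carried Y-linked reads at 184 to 273 CPM (counts scaled to a common library size) and Xist at no more than 0.313 CPM. The other 8 libraries had Xist at 1379 CPM or more, and their Y-linked reads were lower but not absent. These reads were at 40.0 CPM in Jak2V617F replicate 3, 33.3 in double-lesion replicate 2 and 16.1 to 20.5 in WT. In double-lesion replicates 1 and 3 and Jak2V617F replicate 1 they were at 8.09, 0.727 and 0.169 CPM. The source of the intermediate levels was not tested. The term for Y-linked reads used below set the 3 libraries over 50 CPM against the other 8. Thus no Asxl1-/- library below that cut exists to compare with WT or with the double lesion, whose libraries are all among those 8. Genotype and sex cannot be told apart in either pair. Asxl1 itself, which checks the deletion label, was lower in both groups that carry it: 89.0 and 97.0 CPM in Asxl1-/- and 93.5, 95.1 and 100 CPM in the double lesion, against 162, 164 and 161 CPM in WT and 196, 142 and 132 CPM in Jak2V617F. Its interaction was 0.10 ± 0.18 (log2 ± SE, adjusted p = 0.68, edgeR quasi-likelihood test). Kit, which checks the selection, had an interaction of -0.16 ± 0.20 (adjusted p = 0.54) and between 219 and 338 CPM in the 11 libraries. In these bulk libraries, fewer cells of a type and less RNA per cell cannot be told apart, for any result below.

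Departure from additive effects was common. The interaction was called (adjusted p under 0.05, edgeR quasi-likelihood test) in 6571 of the 15718 genes (41.8%): positive in 3741 (23.8%) and negative in 2830 (18.0%). At an unadjusted p under 0.05 the share was 50.3%. At least a 2-fold departure was found in 2630 of the positive genes (16.7% of those tested) and 1059 of the negative ones (6.74%). On the linear CPM scale 3727 of the 3741 positive genes (99.6%) and all 2830 negative genes had the same sign. Adding a term for Y-linked reads lowered the calls to 1853 positive and 1142 negative genes of the 15718. List counts given below with that term are to be read beside these shares. Of the 6571 genes, 6544 kept their sign under that term and 2814 were still called. Leaving out Asxl1-/- replicate 1 gave 2568 positive and 1790 negative genes.

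The 2 ways of reading the interaction show where the effects went. Jak2V617F on the WT background changed 8446 genes (53.7%, with 24.4% higher and 29.3% lower). On the Asxl1-/- background it changed 869 (5.53%, with 3.29% higher and 2.24% lower). With the term for Y-linked reads these counts were 7988 and 51. Asxl1 loss changed 7014 genes (44.6%) on the Jak2V617F background (24.6% higher, 20% lower) and 3549 (22.6%; 11.3% in each direction) on the WT background. Across genes, the changes with Asxl1 loss on the 2 backgrounds, which share no library, correlated with a Pearson r of 0.080 and a Spearman rho of 0.048. The changes with Jak2V617F on the 2 backgrounds correlated with an r of 0.132 and a rho of 0.048. Genes are not independent replicates, so these are descriptions. Measured as the root mean square log2 difference over genes, the double lesion lay 0.652 from WT, 0.679 from Asxl1-/- and 1.09 from Jak2V617F. Single libraries of 1 group differed by 0.497 to 0.681, a spread that holds more noise than the difference of group means. Jak2V617F alone was the distant group, at 1.24 from Asxl1-/- and 1.19 from WT.

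**Figure D1:**
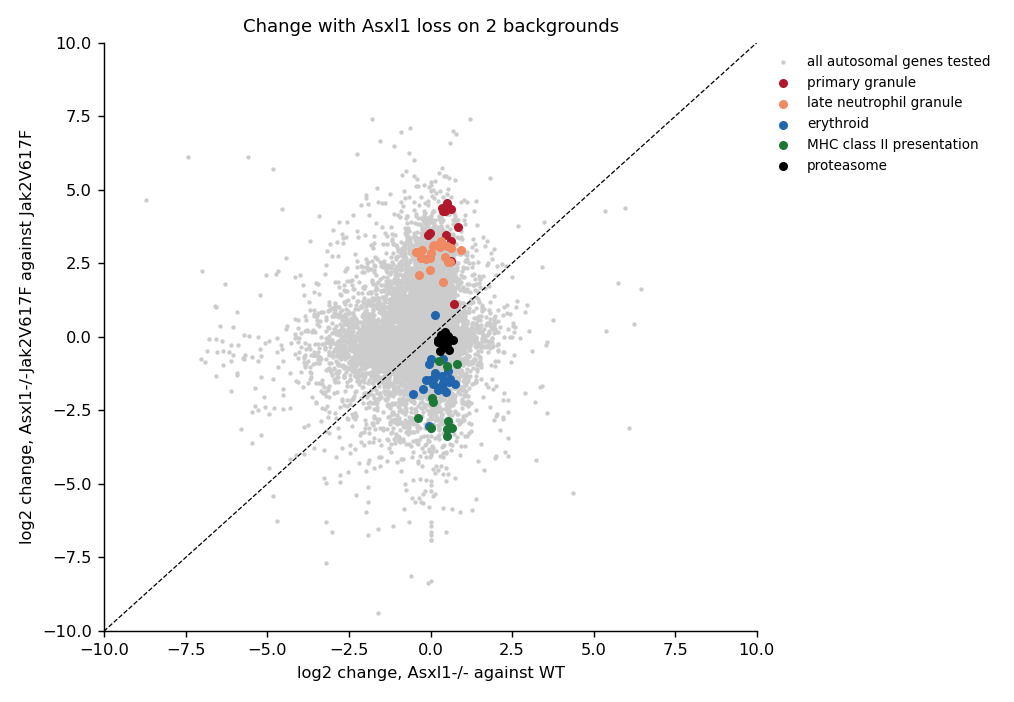
Each point is 1 autosomal gene, with the log2 change from WT to Asxl1-/- on the horizontal axis and the log2 change from Jak2V617F to Asxl1-/-Jak2V617F on the vertical axis, and the dashed line marks additive effects. Primary and late neutrophil granule genes lie high above the line, MHC class II genes and all but 1 of the erythroid genes lie below it, and the proteasome genes form a tight group just below it.

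To place the departure, each called gene was assigned to a group that stood apart. A group stood apart where all its libraries lay above, or all below, every other library, and its mean lay farther from the nearest other group mean than the other 3 means lay from each other. Jak2V617F stood apart low in 2233 of the 6571 called genes (34.0%) and high in 1124 (17.1%). WT stood apart low in 655 (9.97%) and high in 205 (3.12%). Asxl1-/- stood apart low in 406 (6.18%) and high in 66. It has 2 libraries and each other group has 3, so the rule is easier for Asxl1-/- to meet. The double lesion stood apart low in 76 and high in 25. In further genes the groups crossed, with the double lesion and WT together above (339 genes, 5.16%) or below (270 genes, 4.11%) both single lesions. The remaining 1172 (17.8%) had no group apart. Over all 15718 genes tested, Jak2V617F was apart low in 18.2% and high in 11%, WT low in 5.67% and high in 2.34%, Asxl1-/- low in 5.63% and high in 1.92%, and the double lesion low in 1.13% and high in 0.490%. The groups crossed upward in 2.18% and downward in 1.72%. The interaction chose the called genes, so the difference from these shares is a description.

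**Figure D2:**
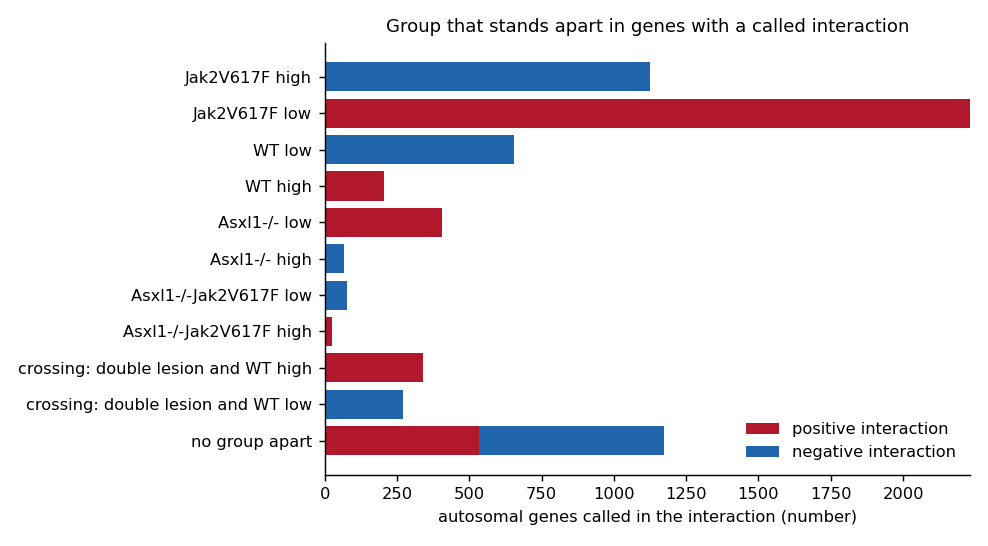
Bars give the number of autosomal genes called in the interaction by the group that stood apart, coloured by the sign of the interaction. The longest bar is Jak2V617F low (2233 genes), followed by no group apart (1172) and Jak2V617F high (1124), and the bars for Asxl1-/-Jak2V617F (76 low and 25 high) and Asxl1-/- high (66) are the shortest.

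Genes that fell with Jak2V617F alone and stood near WT levels in the double lesion were led by granulocyte genes. Primary granules are the first granules of a developing neutrophil and carry myeloperoxidase and serine proteases. Of the 13 primary granule genes tested, 12 had a positive interaction and none a negative one, with a median interaction of 3.55 against 0.10 over all genes, and Jak2V617F stood apart low in all 13. Mpo, which encodes myeloperoxidase, had 6692, 6374 and 5506 CPM in WT, 8153 and 7838 in Asxl1-/-, 654, 374 and 402 in Jak2V617F, and 10940, 10370 and 6096 in the double lesion. The 3 Jak2V617F libraries lay far below the other 8, whose groups overlapped in part. Its interaction was 3.89 ± 0.39 (adjusted p = 5.3e-05). The serine protease gene Prss57 had 98.6, 84.2 and 78.8 CPM in WT, 134 and 114 in Asxl1-/-, 7.25, 4.71 and 5.96 in Jak2V617F, and 172, 154 and 97.6 in the double lesion, with an interaction of 4.06 ± 0.33. Hk3, a hexokinase of myeloid cells (3.55 ± 0.27), and Clec12a, an inhibitory lectin receptor (3.52 ± 0.34), behaved alike, with Jak2V617F the low group.

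The promoters of Mpo, Hk3 and Clec12a are shown because each holds the letters GAGGAAG, a core bound by PU.1-type ETS factors. Each window runs from 250 bases before the RefSeq start (GRCm38.p6) to 50 bases after it, on the strand of the gene. Capitals mark GAGGAAG or its reverse complement, and in Clec12a also the first match, to TTGCNNAA, the C/EBP pattern.
Mpo (chr11:87793534-87793833, plus strand): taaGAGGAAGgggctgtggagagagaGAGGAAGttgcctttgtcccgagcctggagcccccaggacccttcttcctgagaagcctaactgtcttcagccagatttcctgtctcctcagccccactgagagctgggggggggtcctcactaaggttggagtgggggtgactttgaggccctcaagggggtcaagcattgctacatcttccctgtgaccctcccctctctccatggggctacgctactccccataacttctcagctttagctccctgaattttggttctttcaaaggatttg
Hk3 (chr13:55021336-55021635, minus strand): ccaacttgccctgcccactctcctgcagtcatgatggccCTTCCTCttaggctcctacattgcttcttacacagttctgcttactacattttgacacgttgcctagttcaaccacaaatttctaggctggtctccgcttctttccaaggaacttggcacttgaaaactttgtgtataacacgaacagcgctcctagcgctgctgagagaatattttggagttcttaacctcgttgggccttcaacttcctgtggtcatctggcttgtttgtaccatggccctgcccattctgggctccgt
Clec12a (chr6:129349994-129350293, plus strand): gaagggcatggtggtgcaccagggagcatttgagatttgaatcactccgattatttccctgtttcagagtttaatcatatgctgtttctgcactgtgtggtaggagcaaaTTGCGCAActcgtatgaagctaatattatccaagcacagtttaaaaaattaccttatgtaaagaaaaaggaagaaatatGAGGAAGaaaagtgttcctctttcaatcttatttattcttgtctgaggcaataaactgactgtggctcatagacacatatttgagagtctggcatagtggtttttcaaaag
Of the primary granule genes, 9 matched exactly 1 promoter, and 7 of these (77.8%) held GAGGAAG on either strand, against 13.6% of the 8374 promoters of tested autosomal genes. TTGCNNAA was in 3 of the 9 (33.3%) against 8.30%. Among the 1294 promoters of called genes with Jak2V617F low, 17.5% held GAGGAAG and 11.7% held TTGCNNAA. GAGGAAG was also in 9 of 39 promoters (23.1%) of called genes with the double lesion apart low. A match describes the letters and is not evidence of a bound site.

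Late neutrophil genes, which encode the contents of secondary and tertiary granules and the surface of mature neutrophils, were called positive in 15 of 20 with none negative (median 2.72), and Jak2V617F was apart low in all 20. Camp, the cathelicidin antimicrobial peptide, had 3349, 4645 and 4844 CPM in WT, 5294 and 5077 in Asxl1-/-, 332, 404 and 157 in Jak2V617F, and 2500, 2078 and 2758 in the double lesion. The double lesion was thus above every Jak2V617F library and below every WT library. Its interaction was 2.76 ± 0.45 (adjusted p = 0.0012). Summed over the list, late neutrophil genes took 3.79 to 5.77% of counts in WT, 6.00 to 6.22% in Asxl1-/-, 0.216 to 0.586% in Jak2V617F and 2.77 to 3.44% in the double lesion. All 5 autosomal genes tested of the phagocyte NADPH oxidase, the enzyme that makes superoxide, were called positive (median 2.58). Among them, the regulatory subunit gene Ncf4 had an interaction of 2.90 ± 0.29. Alox5, the first enzyme of leukotriene synthesis, had 112, 156 and 143 CPM in WT, 134 and 132 in Asxl1-/-, 12.1, 13.4 and 7.07 in Jak2V617F and 84.4, 77.9 and 99 in the double lesion. Eicosanoid synthesis as a list was called positive in 9 of 14 and negative in none (median 1.75).

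Receptors and factors that set granulocyte fate were next. Csf3r, the receptor for granulocyte colony-stimulating factor, had 249, 423 and 304 CPM in WT, 245 and 276 in Asxl1-/-, 42.0, 42.3 and 23.8 in Jak2V617F and 324, 262 and 232 in the double lesion. Only Jak2V617F stood apart, and the interaction was 3.24 ± 0.39 (adjusted p = 0.00027). The subunits of the granulocyte-macrophage colony-stimulating factor receptor, Csf2ra (2.28 ± 0.23) and Csf2rb (2.45 ± 0.31), were called too. Of 20 cytokine receptor genes, 10 were called positive and 2 negative. Of 29 lineage transcription factor genes, 17 were positive and 6 negative, and each of the 23 had Jak2V617F as the group apart. Among the positive ones, Gfi1, a repressor needed for neutrophil maturation, had 116, 126 and 106 CPM in WT, 146 and 142 in Asxl1-/-, 12.8, 8.78 and 7.91 in Jak2V617F, and 187, 163 and 88.2 in the double lesion. The C/EBP factor genes Cebpd (2.60 ± 0.31) and Cebpb (2.24 ± 0.35), and the ETS factor genes Erg (2.84 ± 0.14) and Fli1 (2.27 ± 0.27), were also positive.

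Erg, an ETS factor of stem and megakaryocyte cells, had the smallest p of all autosomal protein-coding genes: 95.1, 86.8 and 88.4 CPM in WT, 75.1 and 83.4 in Asxl1-/-, 11.5, 10.6 and 10.2 in Jak2V617F, and 73.3, 66.9 and 63.3 in the double lesion (adjusted p = 2.0e-06). Its log2 change with Jak2V617F was -3.07 on the WT background and -0.22 on the Asxl1-/- background, where it did not pass the test (adjusted p = 0.20). The 10 protein-coding genes of smallest p were all positive, with Jak2V617F the low group in each. Besides Erg they were Rab44, Nin, Idh1, Ikbke, Itih5, Mcf2l, Tmx4, Rab3d and Rps6ka2, with interactions from 2.34 (Tmx4) to 4.31 (Mcf2l). Idh1, the cytosolic isocitrate dehydrogenase, had 79.7, 87.3 and 83.6 CPM in WT, 95.6 and 95.6 in Asxl1-/-, 17.2, 16.8 and 16.1 in Jak2V617F and 113, 106 and 88.1 in the double lesion.

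In other myeloid, platelet and stem cell lists most genes also fell with Jak2V617F on the WT background: 9 of 10 eosinophil, 9 of 11 mast cell and basophil, 15 of 21 megakaryocyte, 10 of 19 stem cell and 10 of 12 Hox genes, against 29.3% of all genes. Eosinophil genes were called positive in 8 of 10 and negative in 1 (median 2.81): the granule protein gene Prg2 had 203, 108 and 200 CPM in WT, 299 and 406 in Asxl1-/-, 22.1, 23.9 and 24.5 in Jak2V617F and 430, 240 and 336 in the double lesion. Mast cell and basophil genes were positive in 7 of 11 and negative in 1, among them Hdc, which makes histamine (2.51 ± 0.34), and the basophil protease gene Mcpt8 (2.54 ± 0.45). Megakaryocyte and platelet genes were positive in 11 of 21 and negative in none, with Itgb3, the platelet fibrinogen receptor chain, at 2.42 ± 0.35. Stem cell genes were positive in 9 of 19 and negative in 2: Cd34 had 143, 142 and 121 CPM in WT, 204 and 199 in Asxl1-/-, 17.4, 14.6 and 22.1 in Jak2V617F and 156, 156 and 111 in the double lesion. The list did not move as Cd34 did, and 2 of the 19 rose with Jak2V617F on the WT background. Its sum was 577 to 622 CPM in WT, 660 to 666 in Asxl1-/-, 451 to 580 in Jak2V617F and 471 to 609 in the double lesion. The Jak2V617F range overlapped those of WT and the double lesion. Hox genes and their partners were positive in 8 of 12 and negative in none. Hoxa9 (1.64 ± 0.29) and Hoxb4 (2.07 ± 0.36), both homeobox factors of immature cells, were called but not with the term for Y-linked reads (adjusted p = 0.10 and 0.053). With that term 2 of 12 Hox genes, 2 of 19 stem cell genes, 4 of 10 eosinophil genes and 7 of 21 megakaryocyte genes were positive. Over all genes 1853 of 15718 were positive with it, so the Hox and stem cell counts are near that share.

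Monocyte and macrophage genes did not move as 1 block. Of 20, 9 were called positive and 2 negative. Ly6c2, a surface protein of inflammatory monocytes, had 816, 840 and 908 CPM in WT, 1045 and 1025 in Asxl1-/-, 109, 83.6 and 48.5 in Jak2V617F, and 831, 1031 and 634 in the double lesion. Mertk, a receptor by which resident macrophages take up dying cells, was negative instead (-3.63 ± 1.06, adjusted p = 0.023). It had 12.2, 9.92 and 25.2 CPM in WT, 15.0 and 25.7 in Asxl1-/-, 4.29, 9.27 and 1.11 in Jak2V617F, and 0.393, 0.343 and 0.794 in the double lesion, the lowest group. That call was lost when double-lesion replicate 1 (adjusted p = 0.060), double-lesion replicate 2 (0.053) or Asxl1-/- replicate 2 (0.074) was left out, and with the term for Y-linked reads (0.65). Innate sensing genes were positive in 10 of 21 and negative in 1, with the endotoxin receptor gene Tlr4 at 2.57 ± 0.51 and the signal inhibitor gene Irak3 at 2.87 ± 0.25.

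Among 23 glycolysis genes, 11 were positive and 7 negative, and the sign split the isoforms. Pkm, the pyruvate kinase of most tissues, had 982, 1156 and 1010 CPM in WT, 1266 and 1271 in Asxl1-/-, 157, 167 and 113 in Jak2V617F, and 1367, 1311 and 1031 in the double lesion (2.81 ± 0.23). Hk2 (2.33 ± 0.25) and Ldhb (4.00 ± 0.42), a hexokinase and a lactate dehydrogenase chain, were positive with Pkm. Pklr, the red cell and liver pyruvate kinase, was negative (-1.92), as were Hk1 (-1.22) and Pfkm (-1.26). Jak2V617F was the high group in all 3, which were chosen after their values were seen. Genes of the unfolded protein response, which restores folding capacity in the endoplasmic reticulum, were positive in 15 of 22 and negative in none (median 0.79), or 9 without Asxl1-/- replicate 2. Ern1, one of its sensors, had 150, 154 and 135 CPM in WT, 90.4 and 82.8 in Asxl1-/-, 56.0, 49.7 and 42.5 in Jak2V617F and 128, 145 and 114 in the double lesion, an interaction of 2.14 ± 0.17.

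**Figure D3:**
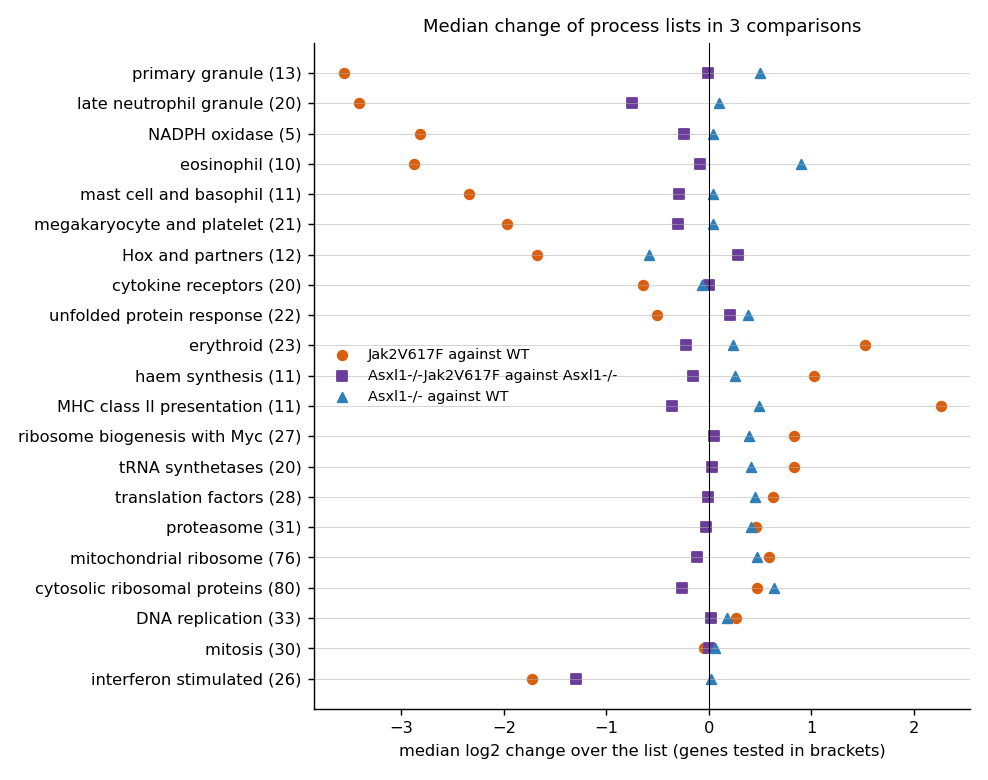
Each row is a gene list, with the number of genes tested in brackets, and the horizontal axis is the median log2 change over the list in 3 comparisons. For the granulocyte lists at the top, the median with Jak2V617F on the WT background lies far left (primary granule -3.56) and the median with Jak2V617F on the Asxl1-/- background lies near 0 (-0.01), and for the interferon list at the bottom both lie left.

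Red cell genes formed the mirror image, high in Jak2V617F alone. Of 23 erythroid genes, 21 were called negative and 1 positive (median -1.69), and Jak2V617F stood apart high in 19. With Jak2V617F on the WT background 22 of the 23 rose and 1 fell, while on the Asxl1-/- background none rose and 1 fell. Over all genes 24.4% rose on the first background and 3.29% on the second, so that none of 23 on the second is near that share. Of the 23, 7 were called negative with the term for Y-linked reads. Epor, the erythropoietin receptor, had 71.7, 39.5 and 54.2 CPM in WT, 68.8 and 66.2 in Asxl1-/-, 204, 156 and 168 in Jak2V617F, and 43.1, 53.7 and 64.6 in the double lesion. The 3 Jak2V617F libraries were above the other 8, which overlapped, and the interaction was -2.0 ± 0.31 (adjusted p = 0.00086). Klf1, the factor that drives red cell genes, had 139, 75.2 and 111 CPM in WT, 175 and 148 in Asxl1-/-, 338, 328 and 357 in Jak2V617F, and 92.2, 102 and 156 in the double lesion (-2.12 ± 0.35). Tal1, a basic helix-loop-helix factor of the red and platelet lines, was at -1.67 ± 0.25. Summed over the list, erythroid genes had 2866 to 4956 CPM in WT, 4330 to 4929 in Asxl1-/-, 10386 to 12011 in Jak2V617F and 3602 to 5624 in the double lesion. Of the 4 globin genes tested, 2 were called negative: Hba-a2 (-5.30 ± 1.03) and Hba-a1, near-identical copies that reads may not tell apart. Hba-a2 varied from 6.96 to 70.0 CPM within Jak2V617F, and with the term for Y-linked reads it was no longer called (adjusted p = 0.15). Hba-a1 lost its call in 9 of the 11 settings that each left out 1 library.

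The Epor promoter (GRCm38.p6, same window) is shown because it holds AGATAA, the core letters of GATA factors, which capitals mark here as the reverse complement.
Epor (chr9:21963527-21963826, minus strand): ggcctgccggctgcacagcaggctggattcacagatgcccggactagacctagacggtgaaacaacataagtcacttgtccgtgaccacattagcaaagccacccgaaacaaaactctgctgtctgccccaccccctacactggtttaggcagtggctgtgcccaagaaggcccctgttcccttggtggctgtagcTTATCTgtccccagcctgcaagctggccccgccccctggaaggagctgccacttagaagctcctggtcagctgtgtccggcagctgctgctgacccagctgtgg
AGATAA on either strand was in 4 of 12 erythroid promoters (33.3%), against 6.47% of the 8374 promoters and 8.01% of the 687 promoters of called genes with Jak2V617F high. The letters were nearly as frequent in lists of other patterns: 5 of 18 late neutrophil promoters (27.8%), 2 of 7 for MHC class II (28.6%) and 10 of 64 for the mitochondrial ribosome (15.6%).

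Haem synthesis went with the red cell genes: 9 of 11 were called negative and 1 positive. Uros, an enzyme of the tetrapyrrole steps, was at -1.51 ± 0.26 and the mitochondrial glycine carrier gene Slc25a38 at -1.16 ± 0.19. The positive gene was Alas1, the first enzyme in cells outside the red line: it had 379, 444 and 374 CPM in WT, 478 and 425 in Asxl1-/-, 70.0, 57.9 and 62.9 in Jak2V617F, and 688, 473 and 391 in the double lesion. Of 14 iron handling genes 7 were negative (4 with the term for Y-linked reads) and 1 positive, the negative ones including Tfr2, a transferrin receptor (-1.46 ± 0.21), and Steap3, an iron reductase of red cell precursors (-1.96 ± 0.29).

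Antigen presentation by MHC class II was another process high in Jak2V617F alone. All 11 MHC class II genes were called negative (median -2.36), with Jak2V617F apart high in 8 and the double lesion apart low in 2. Of the 11, 5 were called with the term for Y-linked reads. H2-Aa, an MHC class II chain, had 48.2, 57.9 and 30.1 CPM in WT, 60.0 and 82.3 in Asxl1-/-, 484, 608 and 524 in Jak2V617F and 81.4, 53.3 and 53.3 in the double lesion. Every Jak2V617F library was above all 8 others, and the interaction was -3.75 ± 0.38 (adjusted p = 0.00010). Cd74, the invariant chain that guides class II molecules, was at -3.62 ± 0.37. Of 14 dendritic cell genes, 7 were negative and 1 positive (2 negative with the term for Y-linked reads). Xcr1, the chemokine receptor of cross-presenting dendritic cells, had 1.12, 1.01 and 0.482 CPM in WT, 0.758 and 1.10 in Asxl1-/-, 14.1, 29.2 and 24.6 in Jak2V617F, and 2.08, 1.43 and 1.41 in the double lesion (-3.87 ± 0.56). Of 14 MHC class I presentation genes 4 were positive and none negative, a positive share near the 23.8% of all genes. With Jak2V617F on the WT background 11 of the 14 fell and none rose, against 29.3% and 24.4% of all genes. Called or not, Jak2V617F was apart low in 8 of the 14, against 18.2% of all genes. B lymphoid markers summed to 378 to 513 CPM in WT, 375 to 717 in Asxl1-/-, 123 to 367 in Jak2V617F and 89.9 to 284 in the double lesion. Dendritic cell markers summed to 312 to 354, 350 to 415, 418 to 554 and 271 to 279 CPM in the same order of groups. What these cells contribute to the class II values was not tested.

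For the proteasome, translation factors and the mitochondrial ribosome, WT was the group apart more often than Jak2V617F. For these lists the summed level was higher in each single lesion than in WT, and the mean of the double lesion was no higher than that of either single lesion. Of 31 proteasome genes, 28 were called negative and none positive (median -0.51), and WT stood apart low in 25, against 5.67% of all genes. Asxl1 loss raised 29 of the 31 on the WT background and none on the Jak2V617F background, where 9 fell, against 11.3% of all genes that rose on the first background and 20% that fell on the second. Jak2V617F raised 30 on the WT background and none on the Asxl1-/- background. Psmd3, a lid subunit of the proteasome, had 205, 140 and 160 CPM in WT, 256 and 240 in Asxl1-/-, 324, 304 and 316 in Jak2V617F and 220, 236 and 233 in the double lesion. WT was the lowest group and the double lesion did not exceed either single lesion, with an interaction of -1.01 ± 0.17 (adjusted p = 0.0010).

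Lists of protein synthesis were negative too. Translation factors were negative in 24 of 28 with none positive (median -0.63, WT apart low in 22), and mitochondrial ribosomal proteins in 58 of 76 with 1 positive (median -0.68, WT low in 45). Ribosome biogenesis genes were negative in 26 of 27 with none positive (median -0.72), WT being apart low in 9 and Jak2V617F apart high in 7. Aminoacyl-tRNA synthetases, which load amino acids on tRNA, were negative in 19 of 20, with WT apart low in 7 and Jak2V617F apart high in 5. In these last 2 lists the departure lay in both groups, and the summed level of the double lesion averaged above Asxl1-/- (7811 against 6997 CPM and 3838 against 3689 CPM). Nop10, part of the particle that modifies ribosomal RNA, had 70.5, 55.7 and 57.9 CPM in WT, 129 and 127 in Asxl1-/-, 114, 114 and 129 in Jak2V617F and 97.5, 102 and 93.1 in the double lesion (-1.34 ± 0.14, adjusted p = 5.3e-05). Eif3g, an initiation factor subunit, had 145, 110 and 122 CPM in WT, 200 and 186 in Asxl1-/-, 218, 209 and 220 in Jak2V617F and 177, 176 and 168 in the double lesion (-0.93 ± 0.14). Mrps7, a mitochondrial ribosomal protein, was at -1.0 ± 0.13, and Slc7a5, a carrier of large amino acids, at -1.12 ± 0.16. Cytosolic ribosomal protein genes were negative in 54 of 80, with none positive; they have many processed pseudogenes, so their counts are uncertain. With the term for Y-linked reads the negative calls fell to 13 of 31 for the proteasome, 14 of 28 for translation factors, 33 of 76 for the mitochondrial ribosome, 15 of 27 for ribosome biogenesis with Myc and 13 of 80 for cytosolic ribosomal proteins. The last list had 28 or 35 negative calls without Asxl1-/- replicate 1 or 2, and 34 or 35 without WT replicate 2 or 3.

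**Figure D4:**
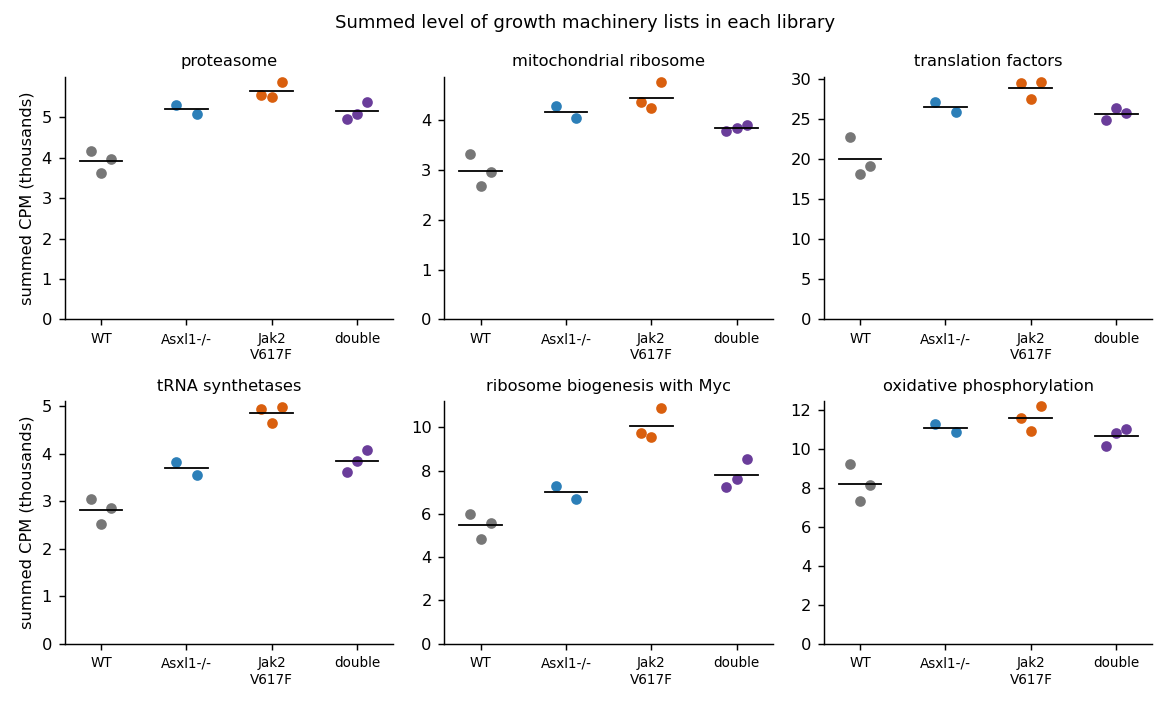
Each panel gives the summed CPM of a growth machinery list in each library (points) with the group mean (line), and the vertical axis starts at 0. In all 6 panels the WT libraries lie below the libraries of the other 3 groups, and for the proteasome they lie between 3631 and 4160 CPM against 4957 or more elsewhere.

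Energy and nucleotide lists were also mostly negative. Oxidative phosphorylation genes were negative in 43 of 76 with 1 positive, tricarboxylic acid (TCA) cycle genes in 12 of 20 with none positive (WT apart low in 8, Jak2V617F apart high in 4), and nucleotide synthesis genes in 15 of 20 with 2 positive. With the term for Y-linked reads these were 11, 4 and 8 negative, and oxidative phosphorylation had 27 without either Asxl1-/- library. Cs, citrate synthase, had 295, 237 and 264 CPM in WT, 355 and 335 in Asxl1-/-, 487, 461 and 493 in Jak2V617F and 342, 345 and 367 in the double lesion (-0.83 ± 0.13), with Jak2V617F apart high. Mthfd1, a folate enzyme that supplies 1-carbon units, had Jak2V617F apart high, with 999, 812 and 979 CPM against 241 to 542 in the other libraries (-1.59 ± 0.27). Heat shock genes were negative in 10 of 19 with none positive (2 with the term for Y-linked reads and 16 without Jak2V617F replicate 1); Hspe1, the small mitochondrial chaperonin, had 165, 105 and 151 CPM in WT, 287 and 262 in Asxl1-/-, 354, 438 and 469 in Jak2V617F and 223, 253 and 257 in the double lesion. The called genes with WT apart low were 95.1% protein coding, with a median of 97.9 CPM against 17.7 over all genes tested. CACGTG, the E box read by Myc-type factors, was in 14.3% of their 434 promoters and in 6 of 19 ribosome biogenesis promoters (31.6%), against 9.995% of all. It was as frequent in called genes with WT apart high (15.5%) or Asxl1-/- apart high (16.3%), and was in 3 of 64 mitochondrial ribosome promoters (4.69%). The number of genes with WT apart low was 655 in the full set, 371 without Asxl1-/- replicate 1 and 1266 without WT replicate 1.

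Few genes departed in the double lesion itself. Called or not, it stood apart high in 3 of 22 genes of JAK-STAT factors and feedback, 2 of 20 of the TNF and NF-kB list and 3 of 25 immediate early genes, against 0.490% of all genes tested. Nfkbiz, an NF-kB cofactor induced by interleukin-1, had 16.2, 21.9 and 18.8 CPM in WT, 9.92 and 17.4 in Asxl1-/-, 9.02, 14.4 and 12.4 in Jak2V617F and 40.6, 30.3 and 54.1 in the double lesion. All 3 double-lesion libraries lay above the rest, and the interaction was 2.27 ± 0.40 (adjusted p = 0.0015). Clu, the secreted chaperone clusterin, had 30.2, 13.3 and 3.91 CPM in the double lesion and 0.264 to 2.59 elsewhere. Ptgs2, the inducible prostaglandin synthase, had 9.21, 3.89 and 18.7 CPM in the double lesion and 0.343 to 1.90 elsewhere. Cxcl2, a neutrophil chemokine, had 29.5, 14.2 and 29.2 CPM in the double lesion and 0.158 to 5.99 elsewhere. The spread within the double lesion was wide in each of these. With the term for Y-linked reads Nfkbiz kept its call, and Clu (adjusted p = 0.16), Ptgs2 (0.39) and Cxcl2 (0.56) lost theirs. Ptgs2 was also not called without Asxl1-/- replicate 1 (0.075). The call of Cxcl2 was lost without double-lesion replicate 1 (0.079) or 3 (0.074), Jak2V617F replicate 2 (0.089) or 3 (0.077), Asxl1-/- replicate 1 (0.14) or WT replicate 1 (0.15). Of 25 immediate early genes 5 were positive and 1 negative, below the 23.8% and 18.0% of all genes. Fos, Fosb and Dusp1 had the double lesion apart high without passing the test; these 3 were chosen after their values were seen.

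The double lesion was apart low, called or not, in 2 of 11 MHC class II genes, 2 of 17 B lymphoid genes and 2 of 17 T and NK cell genes, against 1.13% of all genes tested. In the T and NK list Jak2V617F was apart high in more genes, 6 of the 17. The sum of that list was not lowest in the double lesion. It was 178 to 232 CPM in WT, 305 to 324 in Asxl1-/-, 94.5 to 169 in Jak2V617F and 194 to 338 in the double lesion. Cadm1, an adhesion molecule, had 5.43, 4.90 and 10.8 CPM in WT, 6.48 and 12.6 in Asxl1-/-, 13.4, 24.4 and 14.2 in Jak2V617F and 1.91, 1.72 and 2.14 in the double lesion (-3.61 ± 0.55, adjusted p = 0.00058). Cd86, a costimulatory ligand, had 1.37 to 2.38 CPM in the double lesion and 4.87 to 20.4 elsewhere (-3.61 ± 0.56). Cd4 had 1.46, 0.343 and 2.02 CPM in the double lesion and 4.99 to 16.5 elsewhere (-3.66 ± 0.82). With the term for Y-linked reads, Cadm1, Cd86 and Cd4 were no longer called (adjusted p = 0.053, 0.052 and 0.24). The number of called genes with the double lesion apart was 25 high and 76 low in the full set, and 60 high and 124 low without double-lesion replicate 3. Without Asxl1-/- replicate 2 it was 13 high and 37 low, and without double-lesion replicate 1 or Asxl1-/- replicate 1 the count of high genes was 14 or 11.

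Where Asxl1-/- alone stood apart, it was mostly low, and the double lesion was near WT and Jak2V617F. The 406 called genes of this kind were 47.0% protein coding, against 79.6% of all genes tested, with a median of 3.12 CPM, and 19.5% were lincRNA or antisense genes, against 6.25%. Among all antisense genes tested, 161 of 524 had a positive interaction (30.7%) and 11 a negative one (2.10%). For lincRNA genes these were 131 of 458 (28.6%) and 26 (5.68%), and for processed pseudogenes 68 of 795 (8.55%) and 94 (11.8%). The strand setting of the counting is not given in the sources used here, so reads from an antisense gene and its partner cannot be told apart. Kmt2d, a histone methyltransferase of enhancers, had 342, 416 and 413 CPM in WT, 144 and 162 in Asxl1-/-, 271, 428 and 298 in Jak2V617F and 291, 269 and 302 in the double lesion. Asxl1-/- lay below the other 9 libraries, with an interaction of 1.14 ± 0.23 (adjusted p = 0.0028). Of 22 genes of the MLL and BAF chromatin complexes, 4 were positive and 3 negative, no more than the 23.8% and 18.0% of all genes. Asxl1-/- stood apart low in 7 of them, called or not, against 5.63% of all genes. Phc3, a Polycomb subunit (0.86 ± 0.15), and Cenpe, a kinetochore motor of mitosis (0.97 ± 0.16), also had Asxl1-/- as the low group. Both Asxl1-/- libraries carry Y-linked reads, so genotype and sex cannot be told apart in this class. Kmt2d, Phc3 and Cenpe kept their calls with the added term. The size of that term rests on the Jak2V617F libraries, so it cannot decide this. Leaving out Asxl1-/- replicate 1 gave 240 genes in this class.

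Crossing genes had the double lesion and WT together on 1 side of both single lesions. Vasn, a membrane protein that binds TGF-beta, had 35.4, 47.5 and 51.0 CPM in WT, 5.43 and 6.45 in Asxl1-/-, 16.6, 17.0 and 11.7 in Jak2V617F and 23.7, 23.3 and 30.6 in the double lesion. Each lesion alone lowered it (log2 changes -2.91 and -1.56) and Jak2V617F on the Asxl1-/- background raised it (2.12, adjusted p = 0.0015), for an interaction of 3.69 ± 0.30. Tet2, the methylcytosine dioxygenase mutated in myeloid disease, had 53.7, 69.1 and 56.7 CPM in WT, 28.3 and 32.7 in Asxl1-/-, 38.0, 34.5 and 29.2 in Jak2V617F and 52.9, 59.3 and 51.5 in the double lesion (1.66 ± 0.19). Cbl, a ubiquitin ligase that turns off cytokine receptors, crossed likewise (1.57 ± 0.16). Jak2 itself crossed the other way, with 71.7, 83.4 and 75.9 CPM in WT, 99.8 and 103 in Asxl1-/-, 129, 122 and 127 in Jak2V617F, and 86.1, 97.3 and 93.1 in the double lesion (-0.85 ± 0.12, adjusted p = 0.00027). Of 22 genes of JAK-STAT factors and their feedback, 5 were positive and 3 negative, no more than the 23.8% and 18.0% of all genes. Stat3 (1.12 ± 0.21) and Jak3 (1.69 ± 0.25) had Jak2V617F as the low group. Fth1, the ferritin heavy chain, had 667, 442 and 591 CPM in WT, 891 and 968 in Asxl1-/-, 1273, 1093 and 1079 in Jak2V617F and 584, 631 and 726 in the double lesion.

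**Figure D5:**
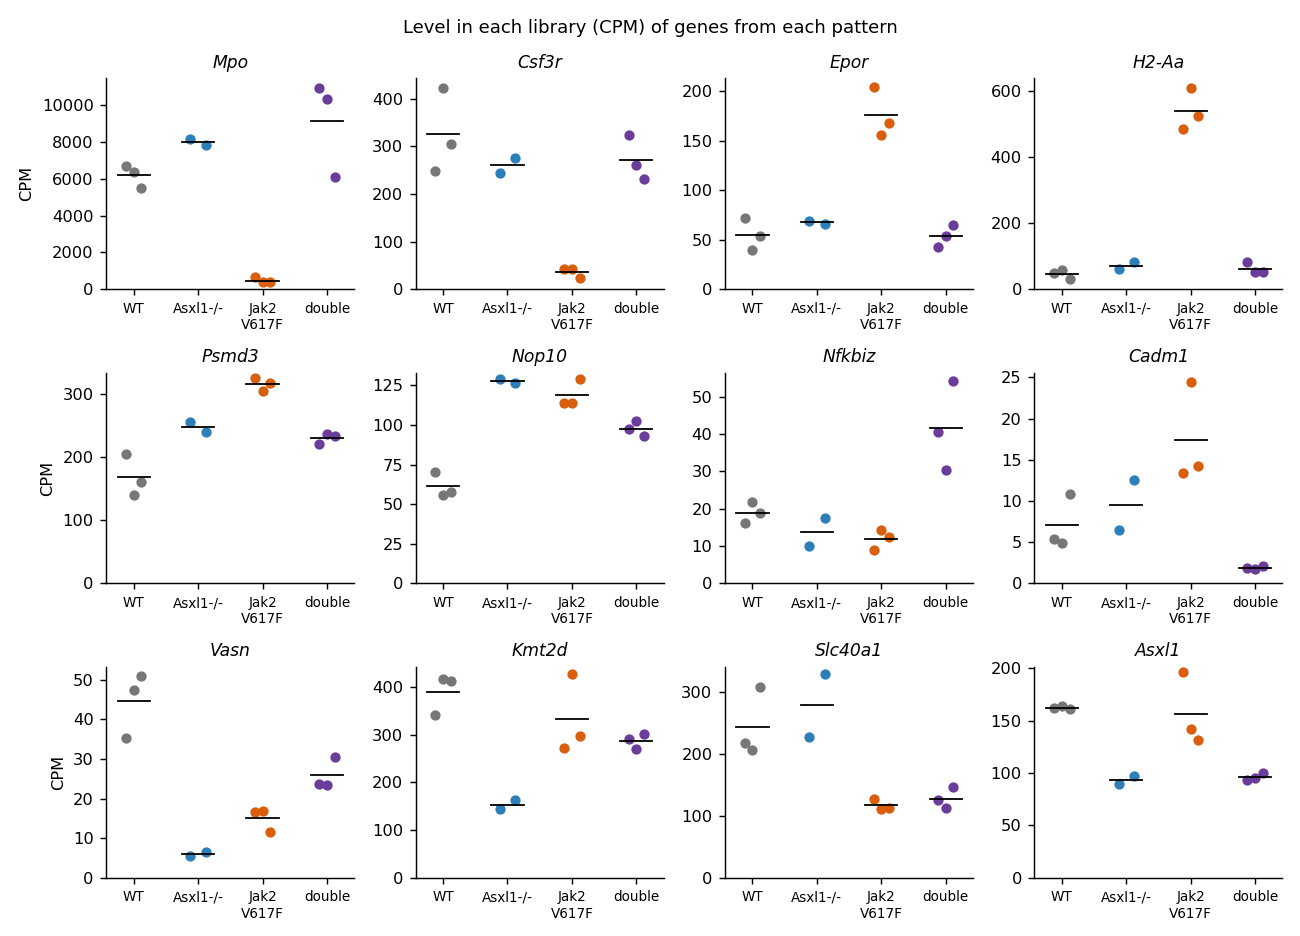
Each panel shows 1 gene, with its CPM in each library (points) and the group mean (line), on a vertical axis that starts at 0. Mpo and Csf3r are low and Epor and H2-Aa high in Jak2V617F alone, Psmd3 and Nop10 are lowest in WT, Nfkbiz and Cadm1 depart in the double lesion, Kmt2d is lowest in Asxl1-/-, Vasn is lower in both single lesions, and Slc40a1 and Asxl1 follow 1 lesion on both backgrounds.

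Additive effects were also measured. In 5428 genes (34.5%) the whole 95% interval of the interaction lay between -1 and 1 on the log2 scale, which is less than a 2-fold departure. A gene can be called in the interaction and still lie inside these bounds. Bounds of -0.5 and 0.5 held 1465 (9.32%). Of the 5428, 1240 (7.89% of all tested) were higher and 767 (4.88%) lower with Jak2V617F averaged over both backgrounds. With Asxl1 loss averaged likewise, 1299 (8.26%) were higher and 809 (5.15%) lower. Over all genes tested, 41.2% had an average Jak2V617F effect and 39.3% an average Asxl1 effect. Slc40a1, the iron exporter ferroportin, had 216, 206 and 308 CPM in WT, 226 and 329 in Asxl1-/-, 127, 111 and 112 in Jak2V617F and 125, 112 and 146 in the double lesion. The 2 groups with Jak2V617F lay below the 2 without it, and the interaction was -0.06 ± 0.27. Vps13c, a lipid transfer protein gene, was raised by Jak2V617F on both backgrounds (log2 changes 1.33 and 1.09), with 95.9 to 176 CPM without the mutation and 169 to 399 with it, ranges that meet between 1 WT and 1 double-lesion library. Slc38a9, a lysosomal amino acid sensor, was lower with Asxl1 loss on both (-1.12 and -1.26). Junb, an AP-1 factor, was higher with Asxl1 loss on both (0.89 and 1.03).

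Interferon stimulated genes had few called interactions. Of 26, 1 was positive and 1 negative, and the median change with Jak2V617F was -1.73 on the WT background and -1.30 on the Asxl1-/- background. On the WT background 17 fell and 1 rose, and on the Asxl1-/- background none passed the test in either direction. The level in WT rests on 1 library: the summed list had 727, 826 and 2512 CPM in WT, 1306 and 1826 in Asxl1-/-, 463, 611 and 552 in Jak2V617F and 623, 865 and 788 in the double lesion. Without WT replicate 3 the median interaction went from 0.53 to -0.23, with 4 genes negative, and the median change with Jak2V617F on the WT background was -1.09. No member had its interval within the near-additive bounds. The positive gene, Ifit2, lost its call with the term for Y-linked reads (adjusted p = 0.32) and when any of 6 libraries was left out. Cell division genes were mixed: of 30 mitosis genes 10 were positive and 5 negative, with a median of 0.08. Of 33 DNA replication genes 1 was positive and 12 negative. Inside the near-additive bounds lay 25 of the mitosis and 30 of the DNA replication genes, against 34.5% of all genes. Lists with many negative calls lay there too: 25 of 31 proteasome, 18 of 28 translation factor and 50 of 76 oxidative phosphorylation genes. The bounds thus do not set cell division genes apart from those lists. With the term for Y-linked reads 3 mitosis genes were positive and 3 DNA replication genes negative, and DNA replication had 5 or 6 negative without Asxl1-/- replicate 1 or 2.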

How the data were processed

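RNA was sequenced from 11 libraries of mouse bone marrow c-kit+ cells. The authors deposited raw read counts per gene, with 1 column per library and mm10 coordinates. Per the submitters' processing notes, the tools were featureCounts 1.5.0-p3, HISAT2 2.0.5 and DESeq2 1.16.1. How strand and multi-mapped reads were handled is not given in the sources used here. Samples were grouped by their genotype labels. No label ties replicates to different mice, and p-values therefore cover only the variation among these libraries, possibly technical. All 11 libraries entered 1 fit with a 4-level genotype factor, using edgeR 4.0.16 in R 4.3.3: filterByExpr by group, TMM scaling, and the robust quasi-likelihood test. P-values were adjusted by Benjamini and Hochberg over the 16262 genes that passed the filter, and autosomal genes were reported at a threshold of 0.05. SE is the log2 estimate divided by the root of the quasi-likelihood F statistic, and CPM uses TMM-scaled library sizes. Biological variation was 19.7% (common coefficient), and counting error adds little at these depths outside genes of low CPM. Genes were named by rule: up to 4 called members per list of smallest p, up to 6 called protein-coding genes of largest interaction per group that stood apart, the 10 of smallest p, up to 6 near-additive genes per direction, and Asxl1, Jak2 and Kit. The genes, the 63 lists and the tests were chosen with earlier results of these data known, and no list test was run. The method was tested on simulated data. Alternatives were DESeq2 1.42.0, other scaling and filters, a replicate block, a term for Y-linked reads and leaving out each library.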

Additional observations from a re-analysis of the deposited data

Results flagged for a closer look

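The effect of Asxl1 loss differed between the Jak2V617F and WT backgrounds by an interaction test in 3741 autosomal genes in the positive direction and 2830 in the negative one. The 10 protein-coding genes of smallest p all had a positive interaction, with all 3 Jak2V617F libraries below the other 8: Erg (2.84), Rab44 (3.87), Nin (2.62), Idh1 (2.42), Ikbke (3.47), Itih5 (3.66), Mcf2l (4.31), Tmx4 (2.34), Rab3d (2.88) and Rps6ka2 (3.22), on the log2 scale. Adjusted p over these genes ranged from 2.0e-06 to 4.9e-06 (edgeR quasi-likelihood test), and none lost its call in any of the 20 other settings. Outside the autosomes, Y-linked reads were present at 273 CPM in Jak2V617F replicate 2, 184 in Asxl1-/- replicate 1 and 199 in Asxl1-/- replicate 2, against at most 40.0 in the other 8 libraries. Their part in the autosomal results was examined only through the added term.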

How the results depend on the processing

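Counts of calls depended most on the 2 Asxl1-/- libraries and on the term for Y-linked reads. That term, whose size rests on the 3 Jak2V617F libraries since both Asxl1-/- libraries carry such reads, gave 1853 positive and 1142 negative interactions, 493 genes for Asxl1 loss on WT and 51 for Jak2V617F on Asxl1-/-. DESeq2 gave 1417 for the last contrast. With a replicate block it was 565. Deviations of same-numbered libraries from their group means correlated from -0.199 to 0.182 over 15 pairs, with 4 over 0.1. With 2 or 3 libraries per group, these values cannot decide whether the numbers pair the samples. The block left the counts of the interaction and of the other 3 contrasts within 1.5 times. Counts of groups apart were not run with it. Without the distance rule the double lesion was apart high in 106 and low in 164 genes, Jak2V617F high in 1697, Asxl1-/- high in 484, and WT high in 708 and low in 1088. A bound of 0.5 left 1465 near-additive genes. With 1 library left out at a time (where 1 Asxl1-/- library remained, it was assumed to vary like the other groups), positive interactions ranged from 2568 to 3661 and negative ones from 1790 to 3272, lowest without Asxl1-/- replicate 1. Asxl1 loss on WT ranged from 279 to 4237 (also 1374 without Asxl1-/- replicate 2, 1877 without WT replicate 2 and 2128 without WT replicate 3), and Jak2V617F on Asxl1-/- from 84 to 920 (160 and 84 without Asxl1-/- replicate 1 and 2, 508 and 347 without double-lesion replicate 1 and 2). The double lesion was apart high in 11 to 60 and low in 37 to 124 genes, Asxl1-/- high in 26 to 76 and low in 240 to 389, WT high in 91 to 290 and low in 371 to 1266, and 418 to 994 had no group apart. Of the 84 genes of the text followed through these settings, none that was called, in the full set or in the setting, reversed its sign. Slc38a9, Asxl1, Junb and Slc40a1, which were not called, changed sign when some library was left out. Pklr, Hk1, Pfkm, Fos, Fosb and Dusp1 were not followed. Among all 6571 called genes 6544 kept their sign with the term for Y-linked reads, and 6570 and 6569 without Asxl1-/- replicate 1 and 2. Most lists kept the sign of their median in all 20 settings; the globin, B lymphoid, interferon, Ras-MAPK, ASXL-BAP1, PRC1, mitosis, p53, Bcl2 family, cilia and core histone lists did not. Of 2-fold interactions simulated at these depths, 35 of 98 were recovered, and of 4-fold ones 53 of 97, so departures of either size may be missed. In the simulation only the double lesion departed, and in far fewer genes than were called here.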
